A study of Mus musculus with 16 samples.

Results

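Pericytes are the mural cells that wrap capillaries, and the 10 genes described here are used as their markers: *Higd1b*, *Cox4i2*, *Ndufa4l2*, *Cspg4*, *Rgs5*, *Notch3*, *Kcnj8*, *Abcc9*, *Mcam* and *Trpc6*. They were taken by gene symbol from 49452 genes measured by RNA sequencing in tdTomato-positive cells sorted from the left lung of 16 mice, and all 10 were found. The list was selected on earlier results of these same FPKM values in the same 4 groups, so differences of the members between groups are given as descriptions, without a test. *Acta2-tdT* mice (Acta2-CreERT2; tdTomatoflox) received saline (4 mice) or bleomycin (4 mice), an agent that injures the lung and is followed by fibrosis, and were given food with 400 mg/kg tamoxifen from 5 days after the agent. *Pdgfra-tdT* mice (Pdgfra-CreERT2; tdTomatoflox) also received saline (4 mice) or bleomycin (4 mice), but tamoxifen was given by injection, 5 times 3 mg, at 6 weeks of age. In all 4 groups the label reads 14 days of the agent and 11 weeks of age. In these lines Cre is driven by *Acta2*, which encodes smooth muscle actin, or by *Pdgfra*, which encodes a receptor of fibroblasts, and tamoxifen switches on tdTomato for good in the cells where Cre is active at that moment. Line, Cre driver and tamoxifen schedule therefore differ together and cannot be told apart.

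A pericyte shares its basement membrane with the endothelium and tunes the width of the capillary. Endothelial PDGF-B binds the receptor encoded by *Pdgfrb* on pericytes and keeps them at the vessel, endothelial Notch ligands signal to NOTCH3, and K-ATP channels built from KCNJ8 and ABCC9 set the membrane potential of mural cells. No single gene is private to pericytes: *Mcam* is also made by endothelium and smooth muscle, *Cspg4* by smooth muscle and glial progenitors, *Notch3* and *Rgs5* by arterial smooth muscle.

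Values are FPKM, that is fragments per kilobase of transcript and per 1000000 mapped fragments, so levels can be compared between genes. The FPKM of nuclear protein-coding genes summed to 35602 to 57788 in saline and 231058 to 463127 in bleomycin mice of the *Acta2-tdT* line, against 29964 to 59840 and 28512 to 137952 in the *Pdgfra-tdT* line. A second scale was therefore used in which that sum is 1000000 in every mouse, called ppm below. The 95th percentile of 1412 olfactory and vomeronasal receptor genes, which lung cells should not use, lay between 2.26 and 4.11 FPKM in saline mice and in *Pdgfra-tdT* bleomycin mice and between 0.515 and 2.05 FPKM in *Acta2-tdT* bleomycin mice, so member values under those levels are within the range of such genes. In *Pdgfra-tdT* mice 9 of the 10 members were under that percentile in every mouse, and *Mcam* was above it in 1 bleomycin mouse. In *Acta2-tdT* mice *Higd1b* and *Cox4i2* were above it in all 8. *Acta2* stood at 139 to 314 FPKM in *Acta2-tdT* saline mice and 2.59 to 11.0 FPKM in *Pdgfra-tdT* saline mice, and *Pdgfra* at 0.273 to 0.562 and 2.14 to 3.82 FPKM. With bleomycin *Pdgfra* read 2.49 to 11.9 FPKM in *Acta2-tdT* mice and 0.977 to 2.45 FPKM in *Pdgfra-tdT* mice, and on ppm it overlapped, at 10.8 to 25.7 and 17.8 to 47.5 ppm. The receptor genes' percentile was 2.88 to 4.11 FPKM in *Pdgfra-tdT* saline and 2.26 to 3.74 FPKM in *Pdgfra-tdT* bleomycin mice. *Pdgfra* in that line was thus within the range of such genes. With bleomycin it was called higher in *Acta2-tdT* mice on log2 FPKM, by 1.60 ± 0.47 (limma adjusted p = 0.00894). There 8520 of 11995 genes were called higher, and on ppm *Pdgfra* was not called. Genes of other cells were also present, with 10 leukocyte genes (*Lyz2*, *S100a8* and others) summing to a median of 16158 ppm in *Acta2-tdT* saline, 13629 ppm in *Acta2-tdT* bleomycin, 1848 ppm in *Pdgfra-tdT* saline and 23996 ppm in *Pdgfra-tdT* bleomycin mice. In bulk RNA of sorted cells, fewer cells of a type and less RNA per cell cannot be told apart.

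Promoters are shown for members that the results below turn on, to let the reader see the DNA next to a pair of genes that work together and next to the member that moved the other way. *Kcnj8* and *Abcc9* encode the pore and the regulatory subunit of the same K-ATP channel and are neighbours on chromosome 6, 16247 bases apart, and *Cspg4* lies on chromosome 9. The sequences are from RefSeq (GRCm38.p6), each from 250 bases before to 50 bases after the start of the gene, 5′ to 3′ on the strand of the gene. Capitals mark TGGGAA, the core bound by RBPJ, through which Notch receptors act, searched on both strands. *Kcnj8* is at chr6:142571565-142571864 (minus strand), *Abcc9* at chr6:142702225-142702524 (minus strand) and *Cspg4* at chr9:56864854-56865153 (plus strand).
Kcnj8: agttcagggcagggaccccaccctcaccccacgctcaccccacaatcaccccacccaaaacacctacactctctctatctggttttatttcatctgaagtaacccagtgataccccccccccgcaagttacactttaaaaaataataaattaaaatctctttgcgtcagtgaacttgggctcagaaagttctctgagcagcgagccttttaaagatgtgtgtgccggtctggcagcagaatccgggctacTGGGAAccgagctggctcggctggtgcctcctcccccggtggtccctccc
Abcc9: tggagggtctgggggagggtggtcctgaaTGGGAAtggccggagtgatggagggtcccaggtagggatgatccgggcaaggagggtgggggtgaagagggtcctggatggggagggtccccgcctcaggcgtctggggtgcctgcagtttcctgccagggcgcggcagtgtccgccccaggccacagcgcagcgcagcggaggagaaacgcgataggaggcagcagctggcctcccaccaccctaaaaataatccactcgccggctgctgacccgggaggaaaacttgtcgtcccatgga
Cspg4: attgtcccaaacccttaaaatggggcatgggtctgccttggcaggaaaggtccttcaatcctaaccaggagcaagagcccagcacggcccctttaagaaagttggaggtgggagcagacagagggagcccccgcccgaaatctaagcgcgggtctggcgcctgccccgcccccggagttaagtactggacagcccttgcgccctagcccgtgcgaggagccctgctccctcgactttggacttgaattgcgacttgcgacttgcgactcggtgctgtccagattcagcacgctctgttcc
Both channel genes held the core 1 time each and *Cspg4* did not, among 7 members with a promoter in the table, of which 2 held it. The core was in 25.6% of 32851 promoters of the same length, so a match is a description and not a site. The core of the hypoxia-inducible factors, ACGTG, was in 2 of the 7 members (*Trpc6* and *Notch3*) and in 19.6% of all promoters, and it can share the letters TG with the RBPJ core. The CArG box, bound by serum response factor, was in 1 of the 7 (*Trpc6*) and in 1.63% of all promoters.

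The 3 mitochondrial members had higher levels in the *Acta2-tdT* than in the *Pdgfra-tdT* cells of saline mice. *Higd1b* belongs to the hypoxia-inducible domain family. Its level was 15.9, 14.9, 13.3 and 10.5 FPKM in *Acta2-tdT* saline mice and 0.104, 0.0793, 0.150 and 0 FPKM in *Pdgfra-tdT* saline mice. The groups did not overlap. *Cox4i2*, an isoform of a subunit of cytochrome c oxidase that is used in oxygen sensing, read 7.46, 10.1, 13.2 and 17.01 FPKM against 0.224, 0.138, 0.195 and 0.338 FPKM. *Ndufa4l2*, a homologue of a respiratory chain subunit that is induced in hypoxia, read 1.63, 2.36, 3.14 and 3.65 FPKM against 0.0546, 0.0969, 0 and 0.0598 FPKM. *Higd1b* and *Cox4i2* were above the receptor genes' percentile in all 4 *Acta2-tdT* saline mice and *Ndufa4l2* in 2 of the 4 (mice 3 and 4), and no *Pdgfra-tdT* saline mouse reached 1 FPKM of any of them. The log2 differences on the ppm scale were 6.82 ± 0.58 (SE) for *Higd1b*, 5.27 ± 0.40 for *Cox4i2* and 4.66 ± 0.84 for *Ndufa4l2*, and on the FPKM scale 3.75 ± 0.23, 3.35 ± 0.29 and 1.78 ± 0.20. Each difference here is of log2(value + 1), which understates the change of low genes, more so on the FPKM scale. The confidence bounds that came with the FPKM reached a median of 18.7% and 18.4% of the value to either side for *Higd1b* and *Cox4i2* in *Acta2-tdT* saline mice, and more than the value itself in both *Pdgfra-tdT* groups, where the lower bound was at 0 in all but 1 of the 8 mice for *Higd1b*.

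With bleomycin, *Higd1b* in *Acta2-tdT* mice was 19.8, 6.73, 3.54 and 13.5 FPKM, which overlapped the saline mice. *Cox4i2* was 3.56, 6.04, 4.18 and 4.69 FPKM, below every saline mouse, and *Ndufa4l2* was 3.55, 1.94, 2.102 and 2.33 FPKM, which overlapped. As a share of nuclear coding signal, all 3 were lower without overlap. *Higd1b* went from 432, 418, 275 and 182 ppm to 62.3, 29.1, 8.13 and 29.1 ppm, and *Cox4i2* from 202, 285, 273 and 294 ppm to 11.2, 26.2, 9.58 and 10.1 ppm. *Ndufa4l2* went from 44.2, 66.3, 64.6 and 63.2 ppm to 11.2, 8.38, 4.82 and 5.04 ppm. With bleomycin *Higd1b* and *Cox4i2* were above that percentile in all 4 mice and *Ndufa4l2* in 3 of the 4, at a smaller share of a larger total. On the log2 scale of ppm the differences were -3.52 ± 0.57, -4.22 ± 0.34 and -2.91 ± 0.32 in that order, and on FPKM -0.52 ± 0.47, -1.17 ± 0.33 and -0.07 ± 0.27. Relative to all genes tested both scales put the 3 genes low, since the median gene differed by 1.76 on the FPKM scale and by -0.01 on the ppm scale.

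In *Pdgfra-tdT* bleomycin mice the 3 genes stayed low. *Higd1b* was 0.149, 0, 1.59 and 0.310 FPKM, *Cox4i2* 0, 0.260, 0.516 and 0.220 FPKM, and *Ndufa4l2* was listed at 0 in mice 5, 6 and 7 and read 0.0759 FPKM in mouse 8. The lines did not overlap on FPKM with bleomycin for any of the 3. On ppm *Higd1b* overlapped, with 37.3 and 10.9 ppm in *Pdgfra-tdT* mice 7 and 8 against 8.13 ppm in the lowest *Acta2-tdT* mouse, and *Cox4i2* overlapped at 0 to 12.1 ppm against 9.58 to 26.2 ppm. The log2 ppm differences between the lines were 2.28 ± 1.12 for *Higd1b* and 1.44 ± 0.80 for *Cox4i2*, and 0.33 and 0.39 without *Pdgfra-tdT* mice 5 and 6, whose endothelial genes summed to 10047 and 3158 ppm and which were left out after seeing the data.

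**Figure D1:**
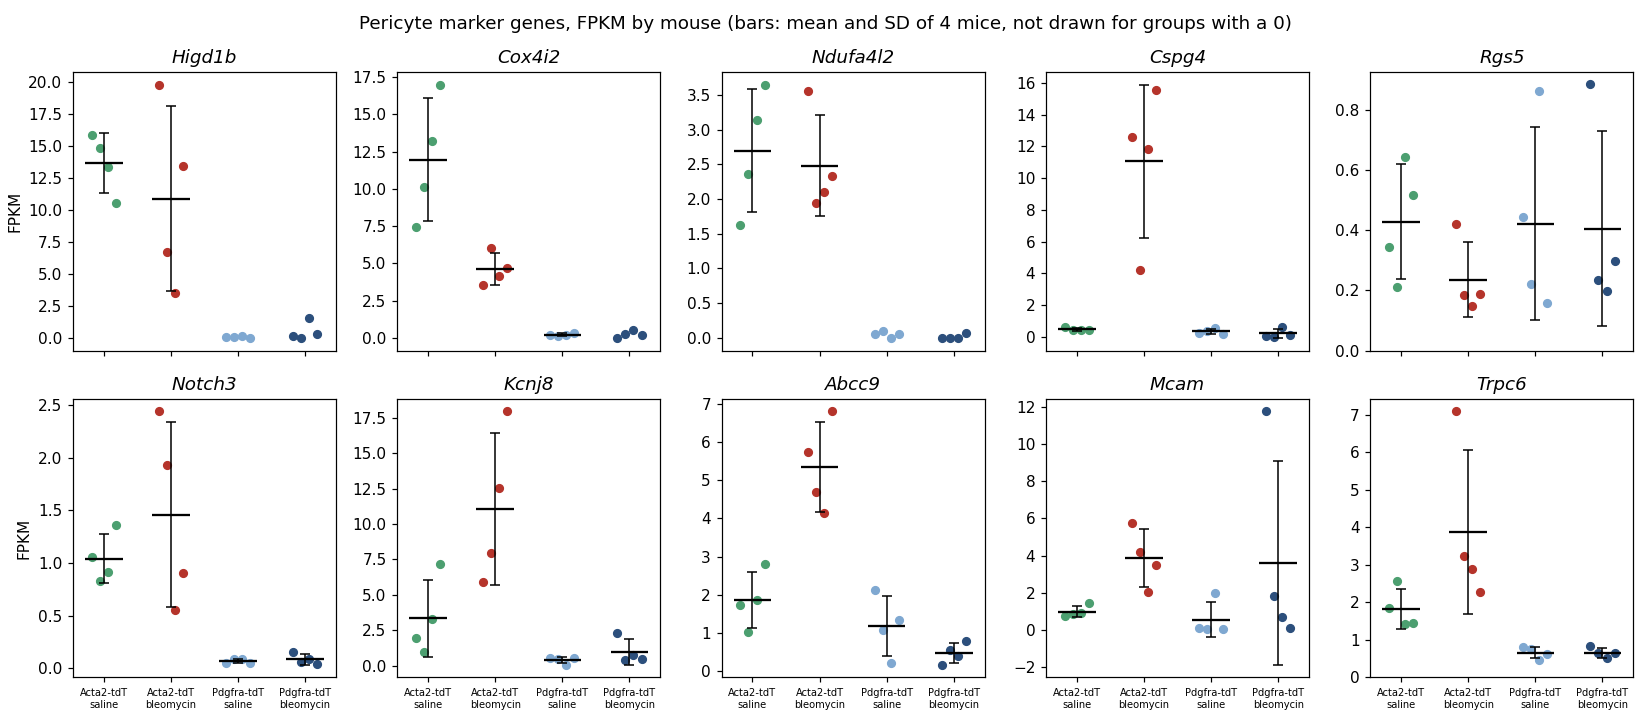
FPKM of each of the 10 pericyte marker genes (1 panel a gene, y axis linear) in the 4 groups on the x axis. Points are mice, lines and bars the mean and SD of 4 mice where no mouse was at 0. The *Acta2-tdT* saline mice sit between 10.5 and 15.9 FPKM for *Higd1b*, and the *Acta2-tdT* bleomycin mice between 4.20 and 15.5 FPKM for *Cspg4*, where all other mice are under 1 FPKM.

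Among the surface proteins, *Cspg4* (the NG2 proteoglycan) had a pattern of its own. It read 0.588, 0.420, 0.456 and 0.409 FPKM in *Acta2-tdT* saline mice, which overlapped the 0.187 to 0.550 FPKM of *Pdgfra-tdT* saline mice. In *Acta2-tdT* bleomycin mice it read 12.6, 4.20, 11.9 and 15.5 FPKM, and in *Pdgfra-tdT* bleomycin mice 0.0788, 0.0146, 0.619 and 0.123 FPKM. The *Acta2-tdT* bleomycin mice stood above all other 12 mice on both scales, with 39.6, 18.2, 27.2 and 33.6 ppm against 7.09 to 15.96 ppm in *Acta2-tdT* saline mice. Bleomycin over saline in this line was 2.92 ± 0.36 on the log2 FPKM scale and 1.35 ± 0.34 on the log2 ppm scale. Of the 10 members, *Cspg4* alone was higher with bleomycin on both scales without overlap in these mice, and its log2 ppm difference was 0.66 when mice were scaled to the median sum.

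*Notch3*, the receptor for endothelial Notch ligands, was low. It was above the receptor genes' percentile in 0 of 4 *Acta2-tdT* saline mice and in 2 of 4 *Acta2-tdT* bleomycin mice. *Acta2-tdT* saline mice had 1.06, 0.831, 0.912 and 1.36 FPKM, *Acta2-tdT* bleomycin mice 2.44, 1.93, 0.550 and 0.908 FPKM, and all 8 *Pdgfra-tdT* mice 0.153 FPKM or less. On ppm the lines overlapped with bleomycin, at 1.26 to 8.36 and 1.11 to 1.99 ppm. The groups of the *Acta2-tdT* line overlapped on FPKM, and on ppm they did not: 28.8, 23.4, 18.8 and 23.5 ppm with saline and 7.67, 8.36, 1.26 and 1.96 ppm with bleomycin. The bleomycin difference was 0.20 ± 0.26 on the log2 FPKM scale and -2.34 ± 0.50 on the log2 ppm scale.

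*Mcam* (CD146), an adhesion molecule of vessels, had uneven values in the *Pdgfra-tdT* line. It read 0.738, 0.834, 0.900 and 1.42 FPKM in *Acta2-tdT* saline mice and 5.75, 4.19, 2.04 and 3.48 FPKM in *Acta2-tdT* bleomycin mice, without overlap. On ppm the same groups separated the other way, at 18.5 to 24.6 ppm with saline and 4.68 to 18.1 ppm with bleomycin, a log2 difference of -0.97 ± 0.43 beside 1.26 ± 0.28 on FPKM. *Mcam* was above the receptor genes' percentile in 0 of 4 saline mice and in 4 of 4 bleomycin mice of this line. In *Pdgfra-tdT* saline mice it read 0.121, 0.0426, 1.98 and 0.0415 FPKM, and in *Pdgfra-tdT* bleomycin mice 11.8, 1.84, 0.687 and 0.121 FPKM. Saline mouse 3 and bleomycin mouse 5 thus carried most of the *Mcam* of their groups. In the same mice the sum of 10 endothelial genes was high, at 9996 ppm in saline mouse 3, 10047 ppm in bleomycin mouse 5, 3158 ppm in mouse 6 and 1207 ppm in mouse 7, against 220 to 521 ppm in the other *Pdgfra-tdT* mice and 99.7 to 367 ppm in *Acta2-tdT* mice. *Pecam1*, a defining gene of endothelium, read 39.1 and 65.9 FPKM in saline mouse 3 and bleomycin mouse 5. The part of endothelial RNA in the *Mcam* values was not tested. The log2 difference of *Mcam* between the lines with bleomycin was 0.70 ± 0.65 on FPKM and -1.02 ± 0.85 on ppm, and these were 1.76 and 0.28 when *Pdgfra-tdT* mice 5 and 6 were left out, a comparison chosen after seeing the data.

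**Figure D2:**
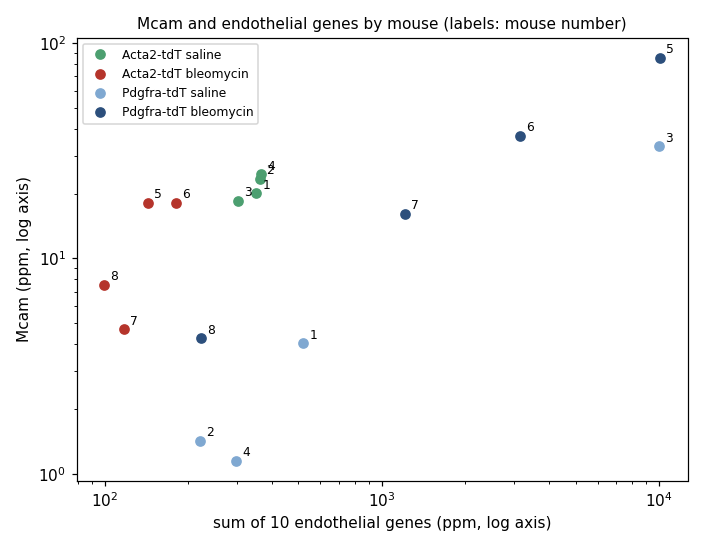
*Mcam* in ppm (y axis, log) against the sum of 10 endothelial genes in ppm (x axis, log) in 16 mice, with the mouse number beside each point. The *Pdgfra-tdT* mice reach up to 85.2 ppm of *Mcam*, and the 3 with the highest *Mcam* have endothelial sums of 3158 to 10047 ppm, while the *Acta2-tdT* mice have *Mcam* of 4.68 to 24.6 ppm at endothelial sums of 367 ppm or less.

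The channel genes had higher mean FPKM in *Acta2-tdT* bleomycin than saline mice. *Kcnj8*, the pore of the K-ATP channel, read 1.94, 0.987, 3.30 and 7.15 FPKM with saline and 5.91, 7.93, 12.6 and 17.97 FPKM with bleomycin. The ranges overlapped. *Abcc9*, which encodes SUR2, the regulatory subunit of the same channel, read 1.75, 1.03, 1.88 and 2.81 FPKM and then 5.74, 4.70, 4.13 and 6.80 FPKM, without overlap. The 2 neighbours differed between the lines: *Kcnj8* with saline was at most 0.565 FPKM in *Pdgfra-tdT* mice, below every *Acta2-tdT* mouse, whereas *Abcc9* was 2.12, 1.07, 0.206 and 1.34 FPKM there and overlapped the *Acta2-tdT* mice. On ppm, *Abcc9* went from 47.4, 29.0, 38.7 and 48.6 ppm to 18.1, 20.3, 9.48 and 14.7 ppm in *Acta2-tdT* mice, and *Kcnj8* overlapped at 27.7 to 124 and 18.6 to 38.8 ppm. *Trpc6*, a cation channel opened by diacylglycerol that admits calcium, read 1.84, 2.57, 1.43 and 1.46 FPKM with saline and 7.10, 3.25, 2.89 and 2.28 FPKM with bleomycin, and overlapped, with 0.465 to 0.830 FPKM in the 8 *Pdgfra-tdT* mice. The 3 channel members thus turned with the scale. *Abcc9* and *Trpc6* were above the receptor genes' percentile in 0 of 4 *Acta2-tdT* saline mice and in 4 of 4 *Acta2-tdT* bleomycin mice. Bleomycin over saline in *Acta2-tdT* mice was 1.57 ± 0.48, 1.16 ± 0.28 and 0.71 ± 0.31 on log2 FPKM for *Kcnj8*, *Abcc9* and *Trpc6*, and -1.005 ± 0.46, -1.35 ± 0.31 and -1.89 ± 0.52 on log2 ppm.

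*Rgs5*, a regulator of G protein signalling and a classic pericyte marker, was under 1 FPKM in all 16 mice. It read 0.210 to 0.642 FPKM in *Acta2-tdT* saline, 0.149 to 0.420 FPKM in *Acta2-tdT* bleomycin, 0.159 to 0.863 FPKM in *Pdgfra-tdT* saline and 0.198 to 0.885 FPKM in *Pdgfra-tdT* bleomycin mice. On FPKM the 4 groups overlapped, and no mouse was above the 95th percentile of the receptor genes, so this defining marker was not read above that background. On ppm the *Acta2-tdT* bleomycin mice, at 0.342 to 1.32 ppm, were below all other groups, where the lowest mouse had 4.39 ppm. The receptor genes' percentile was also lowest there, at 1.11 to 8.89 ppm against 22.5 to 131 ppm in the other groups. Nothing is therefore read from this separation of *Rgs5*.

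**Figure D3:**
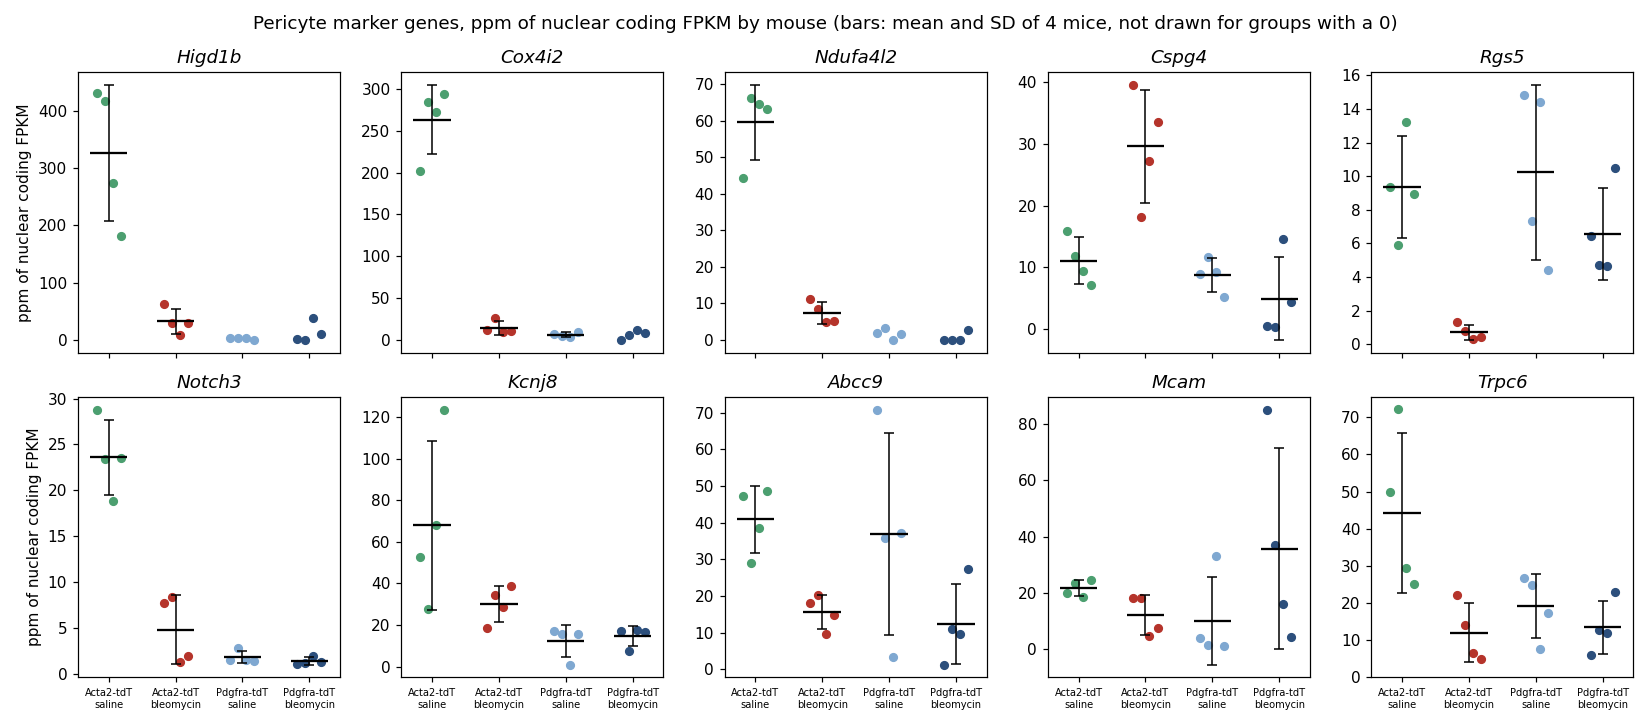
The same 10 genes in ppm of the nuclear protein-coding FPKM sum (y axis, linear) in the 4 groups on the x axis. Points are mice, lines and bars the mean and SD of 4 mice where no mouse was at 0. *Cox4i2* lies at 202 to 294 ppm in *Acta2-tdT* saline mice and at 26.2 ppm or less in all other mice, and *Cspg4* is highest in *Acta2-tdT* bleomycin mice, at 18.2 to 39.6 ppm.

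Counted over the list, 6 members were higher in *Acta2-tdT* than in *Pdgfra-tdT* saline mice on FPKM with no overlap, and 5 on ppm (*Higd1b*, *Cox4i2*, *Ndufa4l2*, *Notch3* and *Kcnj8*, with *Trpc6* added on FPKM). Among all 8153 genes tested 6.56% and 7.75% were higher without overlap, and 1.73% and 1.95% lower, as no member was. With bleomycin 8 members were higher in *Acta2-tdT* mice on FPKM, where 56.8% of 11995 genes were higher and 5.96% lower, and on ppm 3 were higher (*Ndufa4l2*, *Cspg4* and *Kcnj8*) and 1 lower (*Rgs5*), where 18.9% and 14.7% of genes were. Bleomycin over saline in *Acta2-tdT* mice gave 3 members higher (*Cspg4*, *Abcc9*, *Mcam*) and 1 lower (*Cox4i2*) on FPKM, beside 67.8% and 12.5% of 12523 genes, and 1 higher (*Cspg4*) and 8 lower on ppm, beside 21.5% and 29.6%. Among these 8, *Rgs5*, *Notch3*, *Abcc9*, *Mcam* and *Trpc6* were above the receptor genes' percentile in 0 of 4 saline mice. That percentile was itself lower on ppm with bleomycin, so the falls of these genes are not read as a loss of expression. In *Pdgfra-tdT* mice none of the 10 members separated bleomycin from saline on either scale, beside 1.43% of 7275 genes higher and 1.15% lower on FPKM and 1.31% and 0.962% on ppm. In the fit of the *Pdgfra-tdT* mice 9 of those genes were called in all on each scale, with 312 and 280 at an unadjusted p under 0.05. These counts cover all 10 members, of which 5, 8, 9 and 0 passed the filter for testing in the 4 comparisons, and nothing is read from them because the list was chosen on these groups. The comparisons share groups: the *Acta2-tdT* saline and bleomycin mice each stand in 2 of them.

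**Figure D4:**
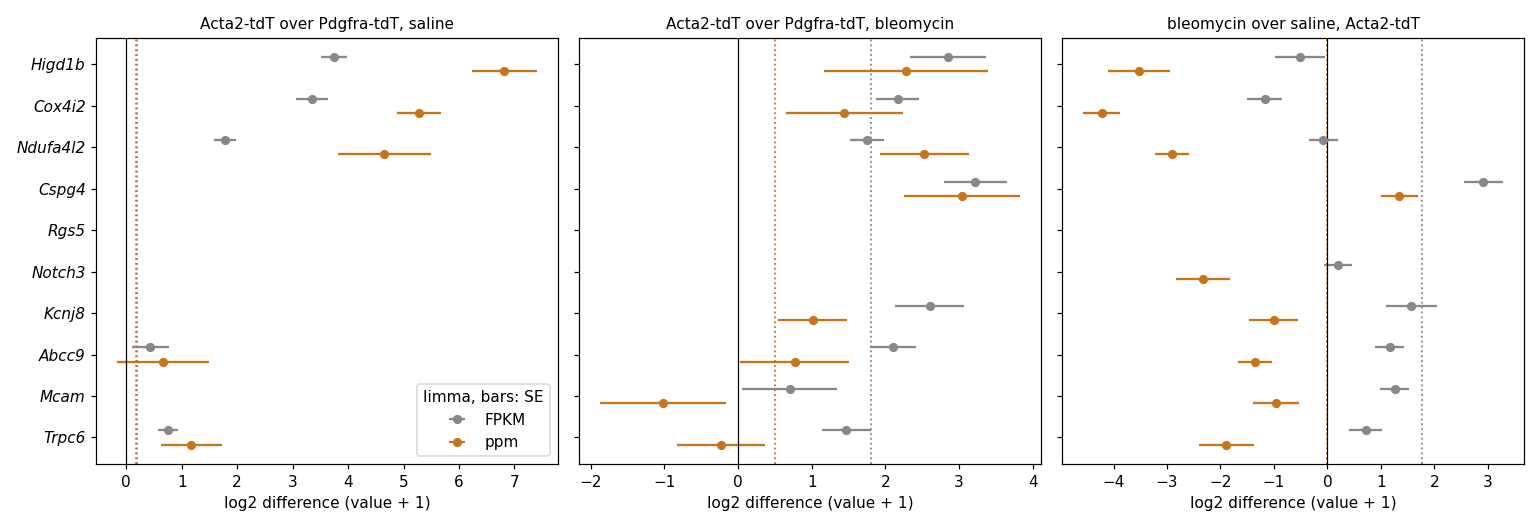
Log2 differences of (value + 1) for the members that passed the filter (y axis) in 3 comparisons, on FPKM (grey) and ppm (orange), with bars for the SE and dotted lines for the median of all genes tested. In *Acta2-tdT* mice bleomycin over saline runs from -1.17 to 2.92 on FPKM and from -4.22 to 1.35 on ppm, and the median of all genes moves from 1.76 to -0.01.

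The summed level of the 10 members had a median of 36.8 FPKM (33.3 to 46.3) in *Acta2-tdT* saline mice and 55.4 FPKM (41.1 to 67.7) in *Acta2-tdT* bleomycin mice, and of 3.96 and 4.66 FPKM in the *Pdgfra-tdT* groups. In ppm the medians were 855 (801 to 963), 162 (101 to 210), 102 and 114. Within the sum the mean shares differed between the *Acta2-tdT* groups, without overlap for *Cox4i2*, *Cspg4*, *Abcc9* and *Mcam* and with overlap for *Higd1b* and *Kcnj8*. *Higd1b* and *Cox4i2* made up 37.0% ± 11.1 (SD, n = 4) and 30.6% ± 6.2 of the member sum in *Acta2-tdT* saline mice, and 18.5% ± 8.9 and 9.11% ± 4.11 with bleomycin. *Cspg4* and *Kcnj8* went from 1.26% ± 0.37 and 8.15% ± 5.36 to 19.8% ± 7.2 and 20.8% ± 8.9. A share within a mouse does not depend on the scale. Across the 16 mice the log2 ppm profile of *Notch3* had the highest Pearson r with the mean of the other 9 members, 0.94, followed by *Cox4i2* at 0.93, *Ndufa4l2* at 0.92 and *Higd1b* at 0.88, whereas *Cspg4* had 0.22, *Rgs5* 0.08 and *Mcam* -0.03. The mice share groups and scaling sums, so these values only describe the profiles.

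Paralogues, which are relatives outside the list, gave another view of each family, and they were tested in the fit across all genes. *Higd1a*, the widely expressed relative of *Higd1b*, was below it in 3 of 4 *Acta2-tdT* saline mice, at 3.22 to 12.3 FPKM, and above it in all 4 bleomycin mice, at 50.2 to 126 FPKM. *Ndufa4*, the housekeeping relative of *Ndufa4l2*, was above it in all 16 mice and stood at 16.8 to 34.8 FPKM with saline and 135 to 322 FPKM with bleomycin in *Acta2-tdT* mice. *Notch2* was below *Notch3* in all 4 *Acta2-tdT* saline mice, at 0.223 to 0.615 FPKM, and above it in all 4 bleomycin mice, at 2.68 to 4.92 FPKM. On log2 FPKM these 3 genes rose with bleomycin, by 3.42 ± 0.48 (limma adjusted p = 8.25e-05), 3.22 ± 0.44 (adjusted p = 6.6e-05) and 1.91 ± 0.22 (adjusted p = 2.88e-05), where 70.4% of 12523 genes were called higher. On log2 ppm their differences were 0.61 ± 0.34, 0.28 ± 0.25 and 0.55 ± 0.31 and did not pass the test (adjusted p = 0.167, 0.375 and 0.16). *Alcam*, the relative of *Mcam*, rose by 1.28 ± 0.32 on log2 FPKM (adjusted p = 0.00333) and fell by 1.24 ± 0.27 on log2 ppm (adjusted p = 0.00505). With saline *Alcam* read 1.35 to 2.003 FPKM, under the receptor genes' percentile, so its fall on ppm is not read as a loss of expression. The relatives of the K-ATP channel genes were low: *Kcnj11* and *Abcc8* stayed at or under 0.209 FPKM, each below its member in all 16 mice. *Cspg5* and *Rgs4* did not pass the filter in this comparison, and *Cox4i1*, the common isoform of *Cox4i2*, was not analysed here.

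The other pericyte genes, 17 in number and all outside the 10 members, split in *Acta2-tdT* mice after bleomycin. Of 10 that passed the filter, 3 rose and 6 fell on log2 ppm, where 22.6% of 12523 genes were called higher and 31.1% lower, and the list's median difference was -1.73 beside -0.01 over all genes. *Postn*, a matrix protein of fibrotic tissue that is also listed for pericytes, went from 118 to 181 ppm up to 987 to 1367 ppm, a rise of 2.94 ± 0.22 (adjusted p = 3.62e-05). *Vtn* (vitronectin), a secreted protein made by pericytes, fell from 35.9 to 83.2 ppm down to 0.622 to 3.91 ppm, by 4.25 ± 0.45 (adjusted p = 0.00012). The receptor genes' percentile was lower with bleomycin too, at 1.11 to 8.89 ppm against 49.97 to 80.6 ppm with saline. *Vtn* overlapped it in both groups, so its fall is not read as a loss of expression. The same caution holds for falls on ppm below that start near that percentile. *Gucy1a3* and *Gucy1b3*, the subunits of the nitric oxide receptor guanylyl cyclase, fell by 3.24 ± 0.50 and 3.05 ± 0.23 (adjusted p = 0.000717 and 3.36e-05). With saline *Gucy1b3* read 60.6 to 77.5 ppm, which overlapped the receptor genes' percentile, and *Gucy1a3* read 93.2 to 133 ppm, above it. On FPKM the split was 6 higher and 1 lower, where 70.4% and 16.3% of all genes were called, with *Vtn* the lower gene and the guanylyl cyclase subunits not called. The receptor genes' percentile was lower on this scale too, at 0.515 to 2.05 FPKM with bleomycin against 2.56 to 2.89 FPKM with saline. *Pdgfrb*, the receptor that defines mural cells, was 83.2 to 101 ppm with saline and 61.5 to 91.7 ppm with bleomycin and was not called on ppm, and on log2 FPKM it rose by 2.49 ± 0.37 (adjusted p = 0.00011).

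Between the lines with saline, 5 of 9 tested genes of that list were called higher in *Acta2-tdT* mice on ppm, where 2.22% of 8153 genes were. *Ednra*, *Gucy1b3* and *Gucy1a3* reached 1 FPKM in no *Pdgfra-tdT* saline mouse and *Pdgfrb* in 1 (1.30 FPKM), so they passed the filter through the *Acta2-tdT* mice, where they were high, and nothing is read from the direction of this count or of the other list counts between the lines. Likewise, nothing is read from the adjusted p or the calls of these genes below, which only describe the fit. *Ednra* (the endothelin receptor A) was higher by 4.73 ± 0.61 (adjusted p = 0.0086), *Gucy1b3* by 3.74 ± 0.45 (adjusted p = 0.00573), *Des* (desmin, the intermediate filament of mural and muscle cells) by 3.31 ± 0.51 (adjusted p = 0.016) and *Gucy1a3* by 3.29 ± 0.39 (adjusted p = 0.00567). *Pdgfrb* was higher by 3.24 ± 0.47 (adjusted p = 0.0131). Leaving out single mice kept the direction of all 5, but without *Acta2-tdT* saline mouse 1, 3 or 4 the calls of *Ednra* and *Gucy1b3* were lost (adjusted p up to 0.0778 and 0.0561), and without any of *Acta2-tdT* saline mice 1 to 4 those of *Des* and *Pdgfrb* (up to 0.0796 and 0.0726), and that of *Gucy1a3* was kept in these 8 fits (up to 0.0418). With the mouse number as a block none of the 5 calls was kept (limma adjusted p from 0.0854 to 0.109). Without *Pdgfra-tdT* saline mouse 3 the called genes of this comparison went from 191 to 2998 on ppm. Between the lines with bleomycin 6 of 9 were called higher on ppm, where 12.8% of 11995 genes were called higher and 15.9% lower. In the same comparison 8 of 9 smooth muscle genes were called higher and 7 of 8 tested endothelial genes lower (*Emcn*, *Cldn5*, *Tie1*, *Cdh5*, *Ptprb*, *Egfl7* and *Pecam1*), and the part of those cells in the values was not tested. Only 4 of the 9 smooth muscle genes reached 1 FPKM in any *Pdgfra-tdT* bleomycin mouse. The endothelial sums of these mice ran from 223 to 10047 ppm. On FPKM all 9 smooth muscle genes were called higher and 0 of the 8 endothelial genes were called. There 8520 of 11995 genes were called higher and 1033 lower. *Des* was higher by 6.97 ± 0.60 (adjusted p = 0.000205), *Postn* by 6.91 ± 0.92 (adjusted p = 0.00166), *Pdgfrb* by 4.58 ± 0.55 (adjusted p = 0.00099) and *Cd248* (endosialin) by 4.39 ± 0.61 (adjusted p = 0.00196). *Des*, *Pdgfrb* and *Cd248* reached 1 FPKM in fewer than 4 of the 8 *Pdgfra-tdT* mice. Their passing of the filter between the lines thus rested on the *Acta2-tdT* mice, where they were high, and nothing is read from their adjusted p.

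The pathway genes around the members were counted in *Acta2-tdT* mice after bleomycin on log2 ppm, where 22.6% of all genes were called higher and 31.1% lower, and on log2 FPKM, where 70.4% and 16.3% were. Of the Notch pathway (15 ligands, receptors, cofactors and targets) 6 passed the filter, none rose and 1 fell: *Heyl*, a Notch target of mural cells, by 1.24 ± 0.37 (adjusted p = 0.0206, and up to 0.0598 without saline mouse 1 or bleomycin mouse 5 or 7), and the list's median was -0.01, as over all genes. On FPKM all 6 rose, *Heyl* by 0.96 on the log2 scale. Of 14 genes of endothelial-pericyte signalling 10 were tested, and 1 rose and 3 fell on ppm, while 8 rose and none fell on FPKM. *Angpt1*, the pericyte ligand of endothelial TIE2, fell by 2.97 ± 0.40 (adjusted p = 0.000329), *Ednrb* by 2.91 ± 0.53 (adjusted p = 0.00175) and *Ednra* by 1.74 ± 0.29 (adjusted p = 0.00112), and *Tgfbr2* rose by 1.46 ± 0.27 (adjusted p = 0.00206).

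Of 17 genes of channels and vessel tone 7 were tested, and 1 rose and 6 fell on ppm, beside 22.6% and 31.1% of all genes, with a median of -2.66. Beside the guanylyl cyclase subunits these were led by *Prkg1*, the cGMP-dependent kinase, which fell by 2.79 ± 0.47 (adjusted p = 0.00119), and *Pde5a*, the phosphodiesterase that degrades cGMP, which fell by 2.66 ± 0.29 (adjusted p = 0.000135). With saline *Pde5a* read 1.83 to 2.47 FPKM, under the receptor genes' percentile, so its fall is not read as a loss of expression. On FPKM 2 of the 7 rose and none fell, beside 70.4% and 16.3% of all genes. The lists share genes, so their counts are not separate results. *Gucy1a3*, *Gucy1b3* and *Pde5a* also count among the other pericyte genes that fell on ppm. *Ednra* counts both there and among the genes of endothelial-pericyte signalling. Of 12 hypoxia targets 9 were tested, and 3 rose and 1 fell on ppm, beside the same 22.6% and 31.1%. *Slc2a1*, a glucose transporter, rose by 1.91 ± 0.61 (adjusted p = 0.0263), *Ndrg1* by 1.59 ± 0.32 (adjusted p = 0.00284) and *P4ha1*, a collagen prolyl hydroxylase subunit, by 0.78 ± 0.24 (adjusted p = 0.0234), and *Pfkfb3* fell by 1.08 ± 0.31 (adjusted p = 0.018). Without bleomycin mouse 5, 7 or 8 the calls of *Slc2a1* and *P4ha1* were lost (adjusted p up to 0.069 and 0.0573), that of *Slc2a1* also without saline mouse 1. On FPKM all 9 rose, where 70.4% of all genes did.

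Of 9 smooth muscle genes 2 rose and 3 fell on log2 ppm in *Acta2-tdT* mice after bleomycin, beside 22.6% and 31.1% of all genes, and 6 rose and none fell on FPKM, beside 70.4% and 16.3%. On ppm *Lmod1* fell by 2.42 ± 0.41 (adjusted p = 0.00113), *Synpo2* by 2.24 ± 0.36 (adjusted p = 0.000867) and *Myh11*, the smooth muscle myosin, by 2.22 ± 0.25 (adjusted p = 0.000157), and *Actg2* rose by 1.12 ± 0.30 (adjusted p = 0.0132). *Acta2* was 3783 to 5426 ppm with saline and 4533 to 6934 ppm with bleomycin and was not called. In saline mice 7 of the 9 were called higher in the *Acta2-tdT* line on ppm, beside 2.22% of all genes called higher. Only 3 of the 9 reached 1 FPKM in any *Pdgfra-tdT* saline mouse, so most passed the filter through the *Acta2-tdT* mice. *Acta2* also drives Cre in that line, so nothing is read from this count, and the differences are descriptions. *Tagln* was higher by 5.52 ± 0.48, *Acta2* by 4.81 ± 0.47 and *Myh11* by 4.40 ± 0.30. The 10 endothelial genes, for comparison, gave 2 lower and none higher of 5 tested after bleomycin on ppm, the 10 leukocyte genes 4 higher and 1 lower of 8, the 10 epithelial genes 2 higher of 6, the 8 alveolar fibroblast genes 1 higher and 1 lower of 4 and the 6 adventitial fibroblast genes 2 higher of 4, again beside 22.6% and 31.1% of all genes. On FPKM, where 70.4% of genes were called higher, none of these genes was lower, and 4 of 5 endothelial, 8 of 8 leukocyte, 6 of 6 epithelial, 3 of 4 alveolar fibroblast and 4 of 4 adventitial fibroblast genes were higher. The part of such other cells in the ppm of the members was not tested.

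The 10 genes whose log2 ppm profile over the 16 mice was most like the mean standardised profile of the members, of 10355 nuclear protein-coding genes compared, were *Rgs2*, *Gucy1b3*, *Gucy1a3*, *Vtn*, *Hrct1*, *Tnfrsf19*, *Myh11*, *Lmod1*, *Tcap* and *Adam33*, with Pearson r from 0.95 to 0.91. *Rgs2*, a regulator of G protein signalling that unlike *Rgs5* was well expressed, had a mean of 2380 ± 648 ppm (SD, n = 4) in *Acta2-tdT* saline, 504 ± 179 ppm in *Acta2-tdT* bleomycin, 249 ± 59 ppm in *Pdgfra-tdT* saline and 237 ± 126 ppm in *Pdgfra-tdT* bleomycin mice. These genes were chosen for their likeness to a profile that is highest in *Acta2-tdT* saline mice, so their own peak in that group follows from the choice and is not tested. The mice share groups and scaling sums here too.

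**Figure D5:**
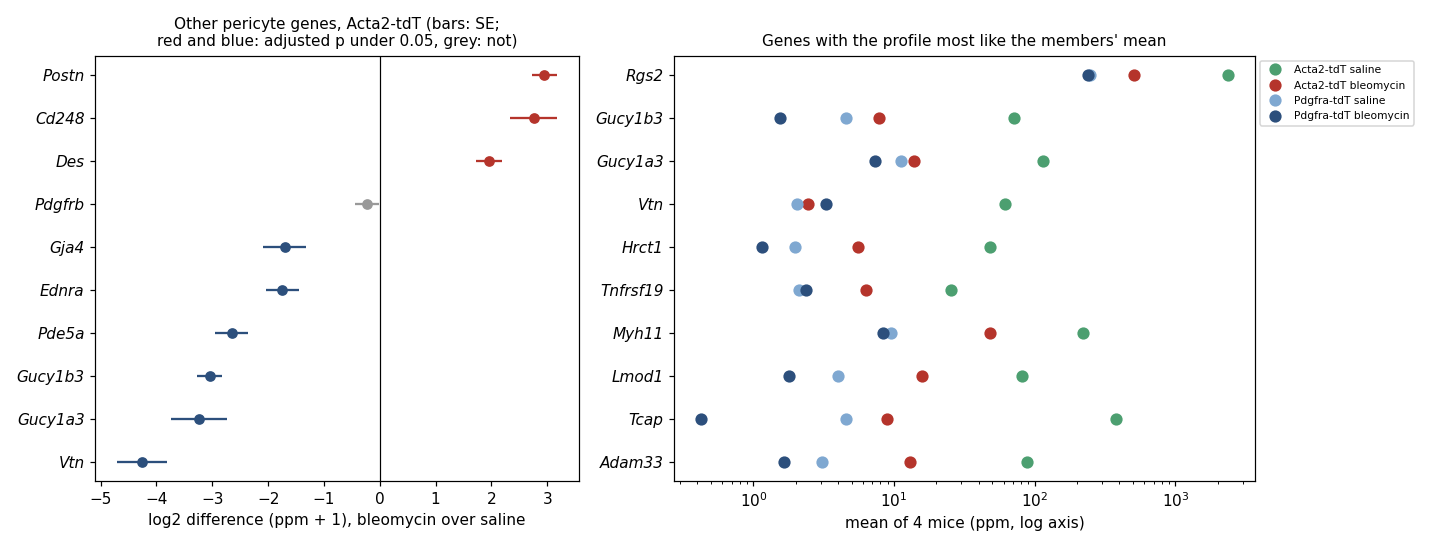
Left, log2 ppm differences (bleomycin over saline, *Acta2-tdT* mice) of the 10 tested pericyte genes outside the member list, with bars for the SE, red and blue for an adjusted p under 0.05 and grey for the rest. They run from -4.25 for *Vtn* to 2.94 for *Postn*. Right, mean ppm of 4 mice (x axis, log) in each group for the 10 genes most like the members, with *Acta2-tdT* saline furthest right in each row, as the choice of these genes fixes, for example *Rgs2* at 2380 ppm.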

How the data were processed

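Sorted tdTomato-positive cells of 16 mice were sequenced with SmartSeq2. The authors aligned the reads to mm10/GRCm38 with TopHat2 2.1.1 and estimated FPKM with Cufflinks 2.1.1. The deposited FPKM were summed by gene (49534 entries, 49452 genes), and the reads behind them are unknown. Another 15 genes with a failed status were left out. Values were also scaled to a nuclear protein-coding sum of 1000000 (ppm). A gene was tested if 4 or more of the 8 mice compared had 1 FPKM or more, with limma 3.58.1 (R 4.3.3, with trend) on log2(value + 1), and Benjamini-Hochberg adjusted p under 0.05 was a call. On simulated data for bleomycin in *Acta2-tdT* mice (12523 genes), 0 of 200 genes changed by 1 on the log2 scale were found, 130 of 200 changed by 2 and 182 of 200 changed by 3. Fewer of the 200 changed by 2 were found in the other comparisons. These were 91 between the lines with saline, 63 with bleomycin and 43 for bleomycin in *Pdgfra-tdT* mice. The simulation used the FPKM scale and drew each gene independently.

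Replicates are separately labelled mice, and no pair had identical values. The members and lists were chosen with earlier results of these data known. Named were all members and their paralogues (1 result is not reported here), in each list and comparison up to 4 called genes with the largest difference, the 10 genes most like the members, *Acta2*, *Pdgfra* and *Pdgfrb*. The alternatives were a pseudocount of 0.1, no filter, sample quality weights, scaling to the median sum, each mouse left out, and the mouse number as a block.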

Additional observations from a re-analysis of the deposited data

Results flagged for a closer look

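In 80 groups of 4 mice (10 genes, 4 groups, 2 scales) 12 had a mouse whose distance to the nearest other mouse as a share of the group's range passed Dixon's 95% critical value, where chance gives about 1 in 20 groups. *Mcam* stood out in the *Pdgfra-tdT* line, with 1.98 FPKM in saline mouse 3 (others 0.0415 to 0.121), the same mouse at 33.1 ppm (others 1.15 or more, up to 4.04), and 11.8 FPKM in bleomycin mouse 5 (others 0.121 to 1.84). *Kcnj8* was lowest in the same saline mouse 3, at 0.871 ppm (others 15.6 to 17.02), and in *Pdgfra-tdT* bleomycin mouse 6, at 7.43 ppm (others 16.8 to 17.6). *Rgs5* was highest in mouse 5 of both bleomycin groups, at 0.420 FPKM in *Acta2-tdT* (others 0.149 to 0.187) and 0.885 FPKM in *Pdgfra-tdT* (others 0.198 to 0.299).

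*Cox4i2* was 26.2 ppm in *Acta2-tdT* bleomycin mouse 6 (others 9.58 to 11.2). *Ndufa4l2* was 44.2 ppm in *Acta2-tdT* saline mouse 1, the lowest (others 63.2 to 66.3). In *Pdgfra-tdT* bleomycin mouse 8 it was 0.0759 FPKM and 2.66 ppm, with the other 3 mice listed at 0. *Notch3* was 2.78 ppm in *Pdgfra-tdT* saline mouse 2 (others 1.43 to 1.53).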

How the results depend on the processing

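The scale decided the direction of several differences. For bleomycin in *Acta2-tdT* mice, the log2 differences were positive on FPKM and negative on ppm for *Kcnj8* (-1.005 on ppm), *Abcc9* (1.16 and -1.35), *Mcam* (-0.97 on ppm), *Notch3* (0.20 on FPKM), *Trpc6* (0.71 on FPKM) and *Alcam* (1.28 and -1.24). The same held for *Heyl* (0.96 on FPKM), *Ednra* (1.03), *Prkg1* (0.024), *Pde5a* (0.12), *Pfkfb3* (0.91), *Lmod1* (0.38), *Synpo2* (0.31) and *Myh11* (0.69), and between the lines with bleomycin for *Trpc6* (-0.23 on ppm), *Mcam* (0.70 and -1.02) and *Alcam* (1.36 and -0.83). The cause was not tested. A pseudocount of 0.1 kept the sign of every gene difference printed in the report that was recomputed with it, and enlarged differences of low genes, between the lines with saline on FPKM from 3.75 to 6.29 for *Higd1b*, 3.35 to 5.19 for *Cox4i2* and 1.78 to 4.17 for *Ndufa4l2*, and with bleomycin for *Cspg4* from 3.22 to 5.39 on FPKM and *Ndufa4l2* from 2.52 to 4.94 on ppm. Scaling to the median sum kept the sign of all 9 tested members in *Acta2-tdT* mice, but moved *Cox4i2* to -3.05, *Ndufa4l2* to -1.52, *Notch3* to -0.81, *Abcc9* to -0.76, *Trpc6* to -0.97 and *Cspg4* to 0.66. Between the lines with bleomycin it moved *Ndufa4l2* from 2.52 to 0.39, *Cspg4* from 3.04 to 0.998, *Higd1b* from 2.28 to 0.72 and *Cox4i2* from 1.44 to 0.37. With saline it moved *Higd1b* from 6.82 to 3.88, *Cox4i2* from 5.27 to 3.41 and *Ndufa4l2* from 4.66 to 1.85. Several genes outside the members moved too, for bleomycin in *Acta2-tdT* mice *Vtn* from -4.25 to -1.81, *Angpt1* from -2.97 to -1.10, *Synpo2* from -2.24 to -0.91 and *Heyl* from -1.24 to -0.46, and between the lines *Ednra* with saline from 4.73 to 2.27 and *Pdgfrb* with bleomycin from 4.58 to 2.08.

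The number of called genes between the lines with saline was 237 on FPKM, and 59 with no filter, 2715 with sample quality weights and 88 to 2397 when a mouse was left out, the highest without *Pdgfra-tdT* saline mouse 3. On ppm it was 191, and 3449 with weights and 46 to 2998 with a mouse left out, the highest again without that mouse. Between the lines with bleomycin on ppm it was 3448, and 5296 with weights, 2120 to 5395 with a mouse left out (2221 without *Acta2-tdT* mouse 7, 2120 without mouse 8, 5395 without *Pdgfra-tdT* mouse 5) and 6042 without *Pdgfra-tdT* mice 5 and 6, chosen after seeing the data. For bleomycin in *Acta2-tdT* mice on ppm it was 6722, and 19889 with no filter, where more genes were tested. For bleomycin in *Pdgfra-tdT* mice it was 9 on either scale. On FPKM it was 2 with no filter, 548 with weights, 6 to 73 with a mouse left out (73 without bleomycin mouse 8) and 26 without the 3 mice whose endothelial sum was 3158 ppm or more (saline mouse 3 and bleomycin mice 5 and 6), while bleomycin mouse 7, at 1207 ppm, was kept. On ppm it was 2423 with weights, 7 to 47 with a mouse left out (15 without bleomycin mouse 5 or 6, 19 without mouse 7, 47 without mouse 8) and 47 without those 3 mice.

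The mice of the lines share numbers, but same-numbered mice did not deviate together (correlations -0.307 to 0.157), so the numbers do not pair them, and 2 of 8 comparisons of a mouse had its own number as the best match. With the replicate block the called genes between the lines with saline were 36 on FPKM and 22 on ppm, and with bleomycin 9379 and 2659. Between the lines with saline on ppm the block left *Ednra*, *Gucy1b3* and *Gucy1a3* at a limma adjusted p of 0.0854, *Des* at 0.0858 and *Pdgfrb* at 0.109, so none of these 5 calls was kept. In all 8 *Pdgfra-tdT* mice the lower confidence bound of *Cox4i2* and *Ndufa4l2* was 0, so a level above 0 was not detectable at this depth.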
